A study of Mus musculus with 12 samples.

Results

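The genes of small nucleolar RNAs (snoRNAs) and small Cajal body RNAs were examined in total RNA-seq of mouse colon and whole blood. They were found by name, as genes whose symbol starts with Snord (box C/D class), Snora (box H/ACA class) or Scarna (Cajal body class) and a number. Of 134 such genes among the 53801 genes counted, 73 had a mean normalized count of 10 or more over the 6 libraries of at least 1 tissue, and these are the members described here. They comprised 38 of 83 box C/D genes, 27 of 42 box H/ACA genes and 8 of 9 Cajal body genes. The minimum was met in the colon by 72 members and in the blood by 49, with 48 in both tissues, 24 in the colon alone and 1 in the blood alone (Snord55). The other 61 genes fell below it. Several of them, such as Snora3, Snora64 and Snord14a, had the same mean of 1.01 in the colon and 1.02 in the blood. Each of these examples overlaps an exon of the gene that contains it. Whether such values reflect the level of the RNA or the way counts were assigned was not tested. Just outside were Snord49b, with a mean of 9.99 in the colon, and Snora19, with 9.80, and just inside was Snord42b, with 10.6.

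The libraries were made from male C57BL/6 mice aged 8 weeks. Ulcerative colitis (UC) is modelled in them with dextran sulfate sodium (DSS), a sulfated polysaccharide that injures the gut lining when drunk with water. Mice 1, 2 and 4 were labelled UC and received 1.5% DSS for 7 days, and mice 7, 8 and 9 were labelled control and received water without DSS. All were killed on day 8. Colon and blood were sequenced from each mouse, which gives 3 UC colon, 3 control colon, 3 UC blood and 3 control blood libraries. DSS injures the epithelium chemically, so the model covers an acute injury rather than the chronic disease of patients.

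SnoRNAs are short noncoding RNAs that guide the chemical modification of ribosomal RNA in the nucleolus. Box C/D snoRNAs bind fibrillarin and guide ribose methylation, while box H/ACA snoRNAs bind dyskerin and guide the conversion of uridine to pseudouridine. Cajal body RNAs carry one or both kinds of box and guide the same reactions on the small nuclear RNAs of the spliceosome. A few members, such as Snord118 (U8), Snord14 (U14), Snord22 (U22) and Snora73 (U17), act in the cleavage of the ribosomal RNA precursor. Most vertebrate snoRNAs are not transcribed from promoters of their own and are instead cut out of the introns of host genes, many of which encode ribosomal proteins or translation factors.

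The boxes can be read in the sequences of the members on which the results below turn. All sequences are from the GENCODE vM21 transcripts of the mouse genome build GRCm38, the build of the deposited counts. In the box C/D genes, capitals mark TGATGA (box C) where it started within the first 15 bases and CTGA (box D) where it ended within 10 bases of the 3′ end. The first 2 had the highest fitted difference towards the colon, and Snord17 and Snord89 were among those called towards the blood.

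Snord123 (chr15:32241853-32241923, minus strand, 71 nt): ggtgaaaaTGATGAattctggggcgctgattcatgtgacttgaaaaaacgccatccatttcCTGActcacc

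Snord118 (chr11:69073427-69073561, plus strand, 135 nt): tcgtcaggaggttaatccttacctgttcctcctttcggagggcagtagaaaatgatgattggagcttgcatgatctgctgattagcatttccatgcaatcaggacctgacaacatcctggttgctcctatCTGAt

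Snord17 (chr2:144265979-144266216, minus strand, 238 nt): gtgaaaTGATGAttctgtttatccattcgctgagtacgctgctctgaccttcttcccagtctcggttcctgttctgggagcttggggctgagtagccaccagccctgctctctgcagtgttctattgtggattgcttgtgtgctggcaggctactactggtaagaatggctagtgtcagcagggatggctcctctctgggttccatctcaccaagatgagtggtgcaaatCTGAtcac

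Snord89 (chr1:39548745-39548854, minus strand, 110 nt): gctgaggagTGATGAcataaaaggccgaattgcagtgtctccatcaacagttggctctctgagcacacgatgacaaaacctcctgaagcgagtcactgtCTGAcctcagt

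The box H/ACA genes below were also called between the tissues. Capitals mark ACA at 3 bases from the 3′ end.

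Snora2b (chr15:98526346-98526482, minus strand, 137 nt): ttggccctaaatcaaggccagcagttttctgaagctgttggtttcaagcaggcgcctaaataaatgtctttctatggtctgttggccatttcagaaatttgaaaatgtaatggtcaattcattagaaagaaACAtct

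Snora78 (chr17:24719676-24719803, minus strand, 128 nt): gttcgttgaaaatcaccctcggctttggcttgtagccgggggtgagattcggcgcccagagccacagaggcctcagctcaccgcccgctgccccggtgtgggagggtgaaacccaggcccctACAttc

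Snora26 (chr5:74093530-74093650, plus strand, 121 nt): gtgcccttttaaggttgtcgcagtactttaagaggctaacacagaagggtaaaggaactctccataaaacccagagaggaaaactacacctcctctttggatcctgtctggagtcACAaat

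Snora73a and Snora73b lie in the same host gene and have nearly the same sequence. Capitals mark the 7 positions of 205 at which they differ.

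Snora73a (chr4:132352775-132352979, minus strand, 205 nt): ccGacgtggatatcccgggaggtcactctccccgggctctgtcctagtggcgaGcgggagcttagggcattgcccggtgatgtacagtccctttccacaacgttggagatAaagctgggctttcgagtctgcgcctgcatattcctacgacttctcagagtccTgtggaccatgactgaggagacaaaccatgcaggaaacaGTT

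Snora73b (chr4:132352322-132352526, minus strand, 205 nt): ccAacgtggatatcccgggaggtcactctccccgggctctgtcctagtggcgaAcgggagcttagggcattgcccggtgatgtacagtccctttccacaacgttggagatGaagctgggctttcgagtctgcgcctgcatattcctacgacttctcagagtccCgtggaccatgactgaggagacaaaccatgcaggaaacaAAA

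Snord14c and Snord14d, both in Hspa8, differed at 2 of 86 positions, and Snord14e lies in the same gene. They are shown because their counts were uneven among the colon libraries. Capitals again mark boxes C and D.

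Snord14c (chr9:40803583-40803668, plus strand, 86 nt): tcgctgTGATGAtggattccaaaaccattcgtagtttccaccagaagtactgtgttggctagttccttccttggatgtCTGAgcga

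Snord14d (chr9:40803995-40804080, plus strand, 86 nt): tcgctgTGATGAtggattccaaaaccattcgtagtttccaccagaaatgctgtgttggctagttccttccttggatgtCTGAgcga

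Snord14e (chr9:40804748-40804837, plus strand, 90 nt): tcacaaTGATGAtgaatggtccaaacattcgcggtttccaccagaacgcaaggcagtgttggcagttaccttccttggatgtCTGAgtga

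Over all members, TGATGA within the first 15 bases was found in 22 of 38 box C/D genes, 4 of 8 Cajal body genes and 0 of 27 box H/ACA genes. CTGA within 10 bases of the 3′ end was found in 34 of 38, 5 of 8 and 2 of 27 genes of these classes, and ACA at 3 bases from the end in 0 of 38, 1 of 8 and 23 of 27. Only the sense strand was searched and only these exact letters. Snord118 had CTGA but not TGATGA in these windows. The genes were between 64 and 414 nt long, with a median of 126 nt. A host gene on the same strand contained 65 of the 73, which was protein-coding for 48 and noncoding for 17, and 8 had none. An exon of the host overlapped 24 members, and 6 overlapped a gene on the opposite strand (Snora23, Snora57, Snora73a, Snora73b, Snora78 and Snord8), from which they cannot be told apart in counts made without strand. Another listed gene at least 90% identical in sequence existed for 9 members, among them Snora73a, Snora73b, Snord14c, Snord14d, Snord88a and Snord88c, so that their counts can be shared between copies and are uncertain.

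Colon libraries held between 69181049 and 103662306 counts, with the 3 highest totals in those labelled UC, and blood libraries between 80867247 and 142536804. The 7SL RNA genes made up 4.90% to 6.50% of a colon library and 35.9% to 65.4% of a blood library. The tissue characteristic of the labels matched the counts: each of 8 colon epithelium genes was higher in all 6 colon libraries and each of 6 red cell genes was higher in all 6 blood libraries. The disease labels did not match genes of inflammation. The summed normalized count of 10 neutrophil genes was 14168, 278 and 328 in colon mice 1, 2 and 4, labelled UC, and 6730, 475 and 50968 in mice 7, 8 and 9, labelled control. Blood mice 1, 2 and 4 had 491870, 55775 and 48979, and blood mice 7, 8 and 9 had 156949, 40812 and 360299. UC and control below are therefore the labels of the libraries, and a direction between them is a direction between labelled groups.

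A few long genes held nearly all member counts. The 8 members of 196 to 414 nt were Scarna10, Scarna2, Scarna13, Scarna6, Snora73a, Snora73b, Snora74a and Snord17, and together they held from 91.0% to 96.1% of the member counts of a colon library and from 92.7% to 98.0% of a blood library. Scarna10 alone held 43.9% to 58.1% of a colon library's member counts and 31.8% to 52.5% of a blood library's. It overlaps an exon of its host Ncapd2 and part of Gm28967 on the same strand, which had 878 to 2773 counts in the colon and 435 to 3145 in the blood. How the quantification divided these shared bases was not tested. CPM are counts scaled to a library total of 1000000. Per length, the level of these 8 genes had a median of 145.2 CPM per kb in the colon. The corresponding median was 3.18 for the 31 members of 64 to 94 nt and 3.24 for the 34 members of 104 to 184 nt. In the blood the medians were 93.7, 1.04 and 1.36 CPM per kb. The step thus lay between 184 and 196 nt rather than along the whole range of lengths. The Spearman correlation of length with CPM per kb over the 73 genes was 0.22 in the colon and 0.31 in the blood, across genes that share the same libraries. Whether fragments of the shorter genes were lost from these total RNA libraries was not tested.

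**Figure D1:**
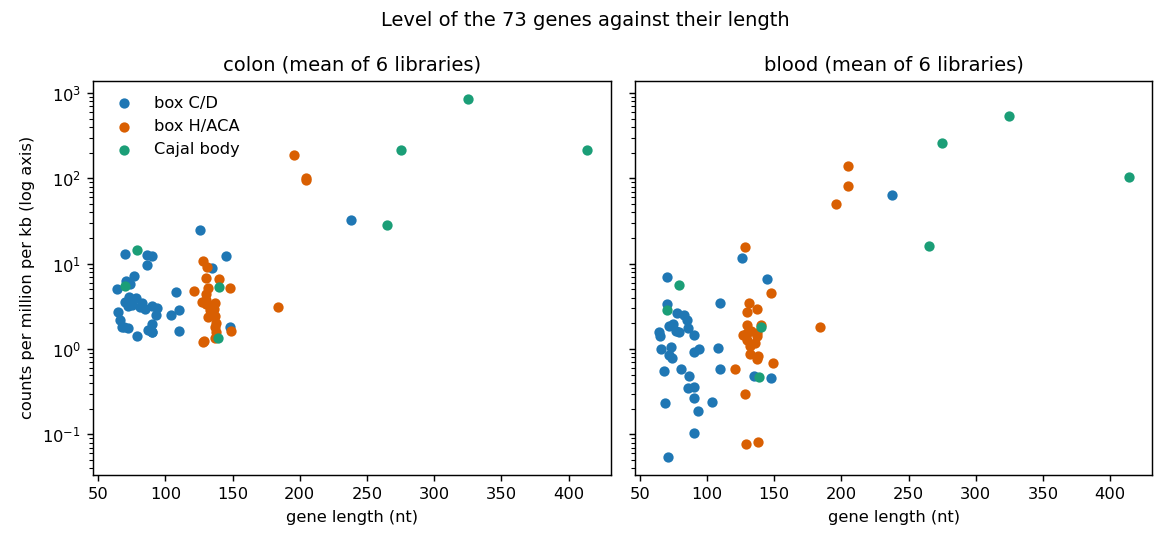
Mean level of each of the 73 genes (CPM per kb of gene length, log axis) against gene length in nt, in colon and blood, coloured by class. The 8 genes of 196 to 414 nt sit above all shorter genes in both tissues.

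In order of level per length in the colon, Scarna10 led with 853.4 ± 309.0 CPM per kb (SD, n = 6 libraries). Scarna13 followed with 217 ± 47.5 and Scarna2, a guide for the spliceosomal RNA of the branch point, with 216 ± 42.7. Snora74a had 188 ± 52.8 CPM per kb. These 3 neighbours differed by less than their spread. Snora73a had 102 ± 20.4 and Snora73b 96.8 ± 17.5 CPM per kb, again within the spread, and Snord17 had 32.6 ± 8.88 and Scarna6 28.3 ± 4.02. Snord22, with 24.7 ± 7.31, and Scarna17, with 14.7 ± 3.00, completed the first 10. In the blood, Scarna10 led with 536.3 ± 332.0, followed by Scarna13 with 257 ± 131.6, Snora73b with 139.9 ± 63.9 and Scarna2 with 105 ± 66.6 CPM per kb. The next were Snora73a with 82.5 ± 72.96, Snord17 with 63.6 ± 28.0 and Snora74a with 50.1 ± 30.7. Scarna6 had 16.3 ± 5.48, Snora78 15.8 ± 6.07 and Snord22 11.8 ± 18.7. In the blood every one of these neighbours differed by less than the larger SD of the pair, apart from the step from Snora74a to Scarna6, which exceeded it.

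The members together held a small part of each library. Their share of all counts (in ppm, counts per 1000000 counts of the library) was 421, 611 and 787 in UC colon (mice 1, 2 and 4) and 478, 605 and 409 ppm in control colon (mice 7, 8 and 9). It was 161, 319 and 686 ppm in UC blood and 476, 347 and 275 ppm in control blood. The means were 606 ± 183 (UC colon), 497 ± 99.2 (control colon), 389 ± 269 (UC blood) and 366 ± 102 ppm (control blood; SD, n = 3 each). The order of the tissues turned with the total used: over the genes of the normalized tables alone the means were 689, 587, 1048 and 886 ppm in the same order. The labelled groups overlapped in both tissues and their means differed by less than the larger SD. In bulk samples, fewer cells of a type and less RNA per cell cannot be told apart. Cajal body genes held 75.4% to 83.8% of the member counts in the colon and 52.7% to 85.3% in the blood. Box H/ACA genes held 13.3% to 18.7% and 10.6% to 35.3%, and box C/D genes 2.93% to 6.18% and 3.10% to 12.02%.

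**Figure D2:**
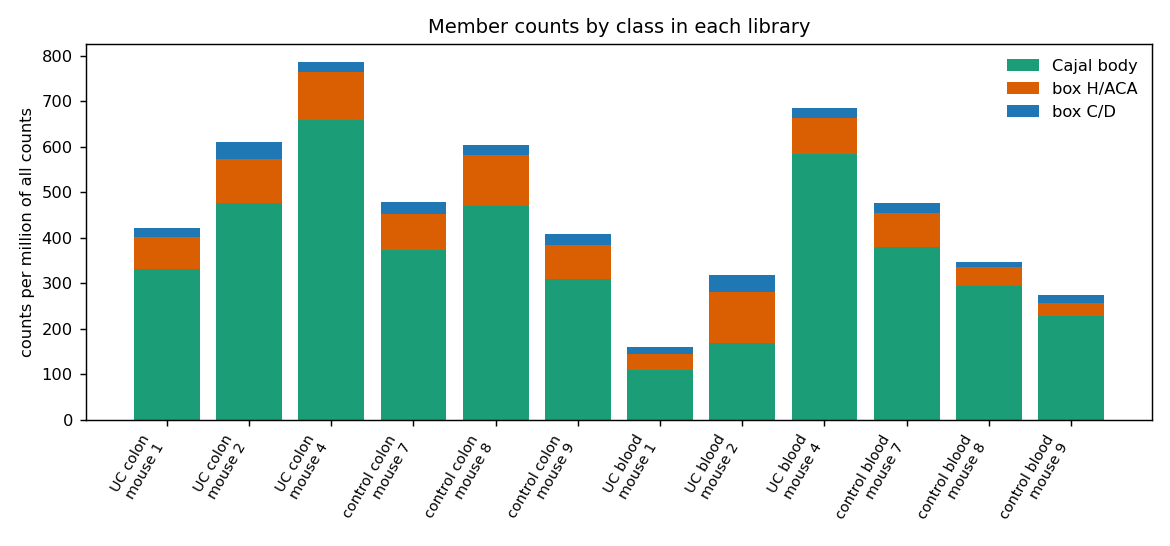
Stacked bars of the counts in Cajal body, box H/ACA and box C/D members, in ppm of all counts, for each of the 12 libraries. Colon bars range from 409 to 787 and blood bars from 161 to 686, and Cajal body genes make up most of each bar.

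The 3 most abundant Cajal body RNAs rose and fell together among the blood libraries. Scarna10 had normalized counts of 7669, 12562 and 40472 in UC blood and 21811, 27009 and 10782 in control blood. Scarna2 had 2419, 3057 and 10609 in UC blood and 4731, 6992 and 2536 in control blood. Scarna13 had 5646, 4276 and 13946 in UC blood and 9731, 12636 and 3778 in control blood. Mice 4, 8 and 7 held the 3 highest values of each gene, in that order, so both labelled groups contained high and low libraries. In the colon the same genes varied less, with Scarna10 between 13965 and 39076, Scarna2 between 5288 and 9300 and Scarna13 between 3847 and 6945.

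The comparison of UC with control colon asked which of these RNAs differ between colon labelled UC and colon labelled control. No member passed the test. Of 71 members tested with edgeR's quasi-likelihood test, 0 were SDE (significantly differentially expressed, taken as an adjusted p no higher than 0.05 by Benjamini-Hochberg and a log2FC beyond 1 either way), against 0.0045% of the 22238 genes tested. At an unadjusted p under 0.05 there were also 0, against 1.41% of all genes, and DESeq2 gave 1 at that level and 0 SDE. The log2FC was above 0 for 29 members and below 0 for 42, with a median of -0.09 against -0.01 over all genes, and ran from -0.92 to 2.46. By class, 16 of 36 box C/D, 7 of 27 box H/ACA and 6 of 8 Cajal body genes were above 0. All libraries labelled UC lay below all labelled control for 2 members, against 2.41% of all genes, and above them for 0, against 2.99%.

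The 2 members whose colon groups did not overlap were Snora78 and Snord83b. Snora78, a box H/ACA RNA in the noncoding gene Snhg9, had normalized counts of 85.2, 107 and 122 in UC colon and 135, 126 and 134 in control colon (log2FC -0.34, SE 0.30). Snord83b, in an intron of the ribosomal protein gene Rpl3, had 17.0, 22.6 and 12.4 in UC colon and 30.4, 25.2 and 38.7 in control colon (log2FC -0.86, SE 0.45). Neither passed the test (edgeR, unadjusted p 0.30 and 0.0996, adjusted p 0.9999 for both), and these genes were named for non-overlap after their values were seen. Snord83b also had the lowest unadjusted p among members that were lower. It was followed by Snora43 (log2FC -0.63), Snora26 (-0.72), Snord58b (-0.70) and Snora34 (-0.58), with unadjusted p between 0.216 and 0.265 in the same test.

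The highest log2FC in the colon belonged to the 3 snoRNAs in Hspa8, the gene of a constitutive heat shock cognate chaperone, and rested on 1 library. Snord14c had 13, 345 and 41 counts in UC colon and 5, 22 and 31 in control colon. Snord14d had 27, 387 and 71 counts in UC colon and 14, 25 and 72 in control colon, and Snord14e had 16, 499 and 9 against 5, 13 and 75. UC mouse 2 was the highest library for each, while the other libraries of the labelled groups overlapped. The log2FC was 2.46 (SE 1.25) for Snord14c, 1.87 (SE 1.02) for Snord14d and 2.33 (SE 1.63) for Snord14e (edgeR, adjusted p 0.9999 for each). Without mouse 2 it was 0.14, 0.13 and -1.42. Hspa8 itself had a normalized count of 116900 in UC mouse 2, against 66627 to 93768 in the other colon libraries, a smaller excess. All 3 snoRNA genes overlap an exon of Hspa8, and the part of the host's reads in their counts was not tested. After these 3, the members above 0 with the lowest unadjusted p were Snord91a (log2FC 0.65) and Snord85 (0.58), at 0.220 and 0.261 in the same edgeR fit.

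For UC against control blood, 51 members passed the filter on low counts and 0 were SDE, against 0.0% of the 16759 genes tested. One member, Snord17, had an unadjusted p under 0.05, against 1.44% of all genes, and DESeq2 gave 2 at that level and 0 SDE. The log2FC was above 0 for 30 members and below 0 for 21, with a median of 0.17 against 0.04 over all genes. It ran from -1.10 to 1.80. The libraries labelled UC lay above those labelled control for 1 member (Snord17, against 3.03% of all genes) and below them for 1 (Snora31, against 3.48%).

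Snord17 guides methylation of the large-subunit ribosomal RNA and lies in an intron of Snx5, the gene of a sorting nexin. It had normalized counts of 2044, 3132 and 2118 in UC blood and 1561, 1258 and 681 in control blood. Every library labelled UC was thus above every library labelled control, with a log2FC of 1.05 (SE 0.35, edgeR, unadjusted p 0.0163, adjusted p 0.9998). Over the alternatives the adjusted p ran from 0.980 to 1.00, so the difference failed the correction throughout. In the colon the gene had 514, 580 and 693 in UC and 1023, 718 and 479 in control libraries (log2FC -0.33, SE 0.33), and these groups overlapped. Snx5 had a log2FC of 0.05 (SE 0.25) in the blood. Snora31, in Tpt1, had 17.9, 21.1 and 20.5 in UC blood and 41.3, 23.0 and 33.1 in control blood (log2FC -0.72, SE 0.50, unadjusted p 0.192 in the same edgeR fit).

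The remaining members with the lowest unadjusted p in the blood depended on mouse 2 or showed wide spread. Snora73a had a log2FC of 1.23 (SE 0.61), Snord15b of 1.52 (SE 0.98), Snord66 of 1.29 (SE 0.92) and Snora7a of 1.80 (SE 1.36). Without mouse 2 these were 0.18, -0.44, -0.05 and 0.99. In the other direction stood Scarna9 (-1.10, SE 0.72), Snord98 (-0.85, SE 0.85), Scarna3a (-0.45, SE 0.48) and Snord53 (-0.80, SE 0.90).

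An interaction contrast in a fit of all 12 libraries then asked if colon and blood differed in the UC effect. Of 73 members 0 passed an adjusted p of at most 0.05, against 0.0043% of the 23258 genes tested, and 2 had an unadjusted p under 0.05, against 3.41%. DESeq2 also gave 0 and 2. Snord17 had a difference of log2FC, colon minus blood, of -1.39 (SE 0.50, edgeR, unadjusted p 0.0177, adjusted p 1.00). Snora26, a box H/ACA RNA in the lncRNA gene Dancr, had a difference of -5.32 (SE 1.86, unadjusted p 0.0154, adjusted p 1.00 in the same fit). Its counts in the blood were 0, 29 and 6 in UC and 1, 0 and 1 in control libraries, so UC mouse 2 held most of them, and without mouse 2 the difference was -2.52.

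Colon and blood were compared over all 12 libraries, and the answer in absolute terms depended on how the libraries were scaled. With TMM scaling, 29 of 73 members were called by the same thresholds, against 58.5% of all genes. Of these, 5 were higher in the colon (37.7% of all genes) and 24 lower (20.8%). Leaving out mouse 4 gave 2 higher and 16 lower, mouse 7 or 8 gave 4 and 15, and mouse 9 gave 2 and 21. Without mouse 2 there were 3 higher and 20 lower. Over all genes, these fits gave 8497 to 8937 higher and 4562 to 4798 lower, against 8759 and 4845 with all mice. With the mouse as a block 23 members were called, 22 of them among the 29, against 13420 of 23258 genes. With scaling to library size alone, which leaves in the counts of 7SL RNA and other abundant blood RNAs, 36 members were called higher in the colon (76.9% of all genes) and 0 lower (7.55%). The median log2FC of all genes moved from 0.46 to 2.57 between these scalings. The median of the members was -0.78 and 1.32, below that of all genes each time. A scaling moves all genes nearly alike, so this distance is not a second test. The RNA isolation and depletion kits also differed between the tissues in the study, so tissue and kit cannot be told apart.

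Since members that reached the minimum in the colon alone were chosen for being high there, the 48 members at 10 or more in both tissues were set beside the 15530 tested genes that met the same minimum in both, a comparison chosen after seeing the data. With TMM scaling 0 of the 48 were called higher in the colon and 22 lower, against 22.6% and 25.9% of those genes. With library size alone 17 were called higher and 0 lower, against 73.2% and 7.47%. The median log2FC of the 48 was -1.03 with TMM scaling, against -0.07 for the genes at the same minimum, and 42 of the 48 lay below that value. By class, the median was -1.16 for 18 box C/D, -0.93 for 23 box H/ACA and -1.11 for 7 Cajal body genes, with 9, 9 and 4 called lower. By length, the 8 long genes had a median of -1.59 and 7 were called lower, against -1.06 for 15 genes of 64 to 94 nt and -0.92 for 25 genes of 104 to 184 nt.

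**Figure D3:**
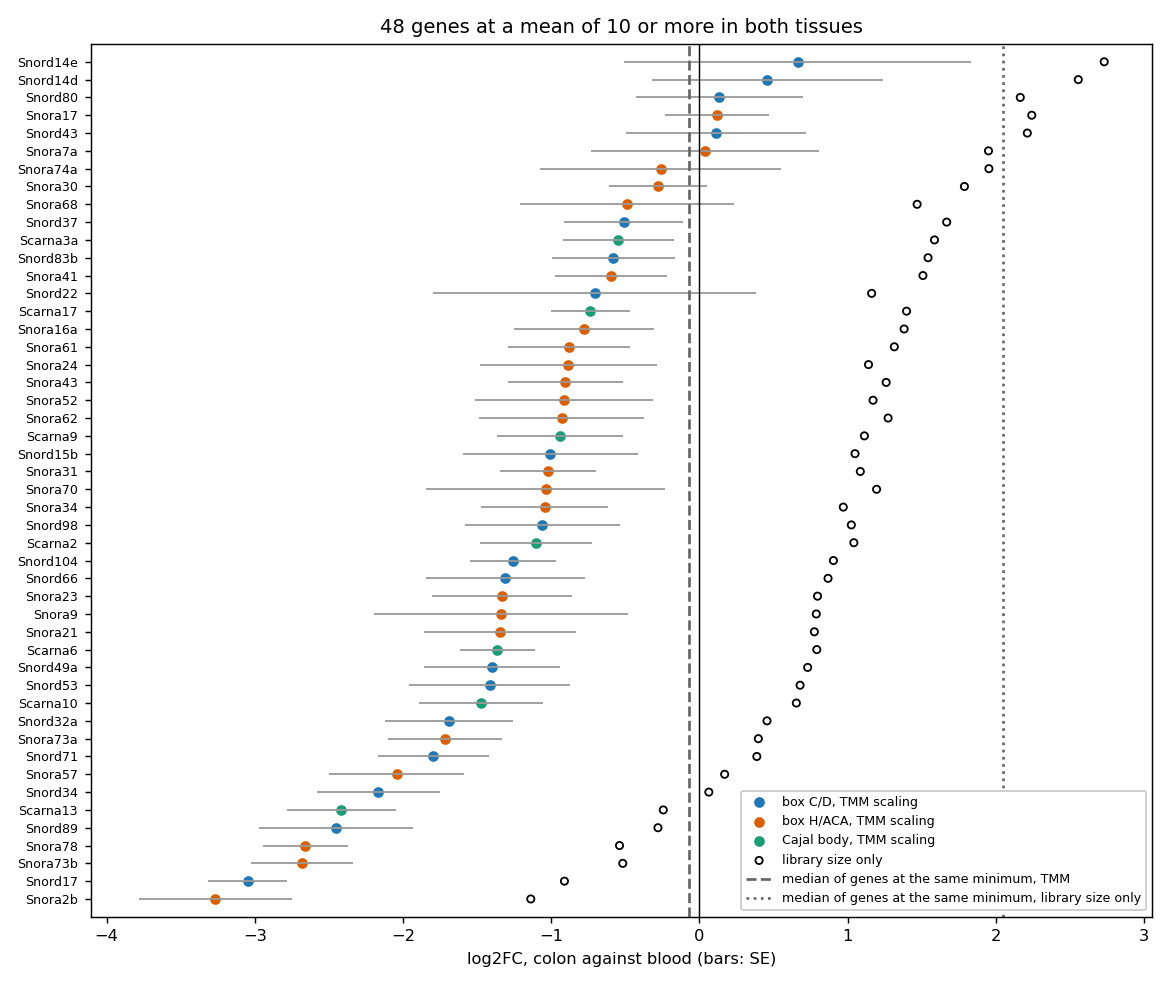
Fitted log2FC of colon against blood for the 48 genes at a mean of 10 or more in both tissues, with TMM scaling (filled, bars are SE) and library size alone (open). Vertical dashed and dotted lines mark the median of the 15530 genes at the same minimum, -0.07 and 2.05, and 42 and 43 of the 48 genes lie to the left of the line of their own scaling.

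Among the members lower in the colon, Snord17 had the lowest adjusted p. It had 2.85, 3.16, 3.78, 5.83, 4.02 and 2.65 TMM-scaled CPM in colon mice 1, 2, 4, 7, 8 and 9, and 37.4, 55.2, 38.5, 29.2, 22.4 and 12.4 in blood. The tissues did not overlap, and the log2FC was -3.05 (SE 0.27, edgeR adjusted p 2.18e-06) with TMM scaling and -0.91 with library size alone (adjusted p 0.00728, short of the fold threshold). It was the only member lower in the colon at an unadjusted p under 0.05 under both scalings, and its host Snx5 had a log2FC of -0.52 with TMM scaling and 1.59 with library size alone. Snora78 had 0.473 to 0.772 TMM-scaled CPM in the colon and 1.81 to 5.72 in the blood (log2FC -2.66, SE 0.29, adjusted p 1.04e-05), and Snora73b had 7.52 to 13.6 and 15.8 to 84.7 (-2.68, SE 0.34, adjusted p 3.80e-05). Snora2b, in the gene Kansl2, had 0.022 to 0.195 in the colon and 0.404 to 1.29 in the blood (-3.27, SE 0.51, adjusted p 1.80e-04). Each of these had separate tissues in TMM-scaled CPM. With library size alone they had log2FC of -0.54, -0.52 and -1.14, none of which passed the test. Snora78 overlaps the ribosomal protein gene Rps2 on the opposite strand, and the part of Rps2 reads in its counts was not tested.

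The others with the lowest adjusted p were Scarna13 (-2.42), Scarna6 (-1.36), Snord34 (-2.17), Snord55 (-2.37), Snord71 (-1.80) and Snord89 (-2.45). Snord55 met the minimum in the blood alone, so its direction was set in part by how members were chosen. With library size alone Scarna6, Snord34 and Snord71 were at 0.79, 0.06 and 0.39. In TMM-scaled CPM, all 6 colon libraries lay below all 6 blood libraries for 12 of 73 members, against 19.2% of all genes. They lay above all 6 blood libraries for 3 members, against 34.3%. Of 28 tested snoRNAs from a list of those with known roles, 2 were called higher and 15 lower with TMM scaling, against the 37.7% and 20.8% of all genes, and 11 higher and 0 lower with library size alone, against 76.9% and 7.55%. Between UC and control, 0 of 28 were SDE in the colon and 0 of 22 in the blood.

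**Figure D4:**
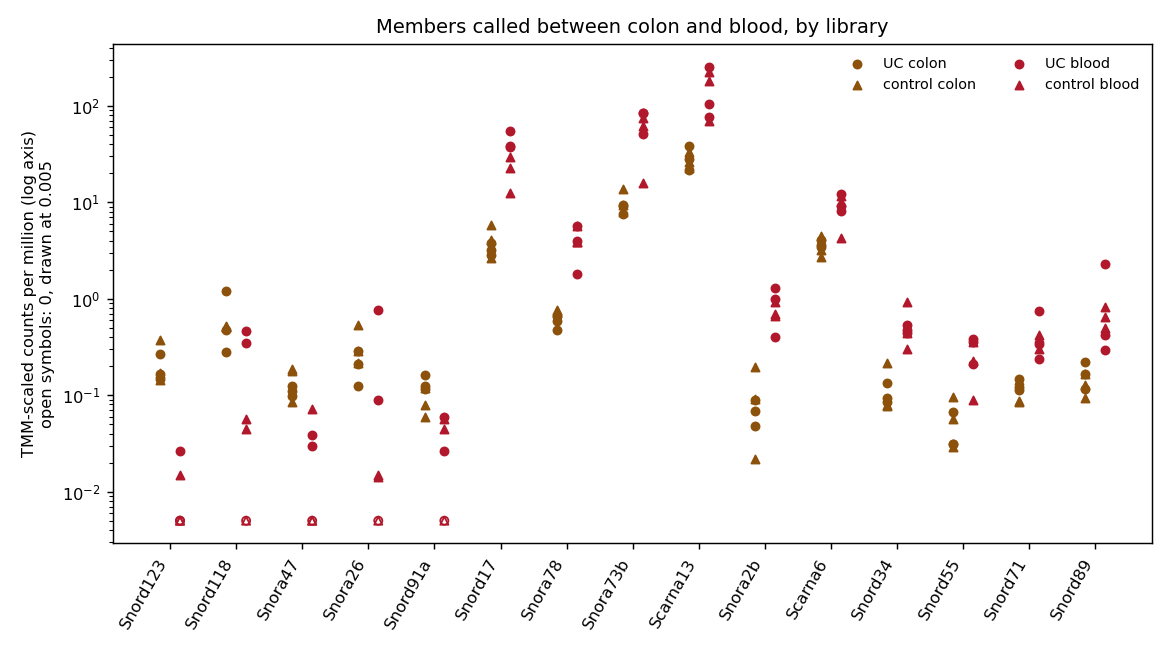
TMM-scaled CPM (log axis) in each of the 12 libraries for the 5 members called higher in the colon and the 10 called lower with the lowest adjusted p; circles are libraries labelled UC, triangles control, brown colon, red blood, and open symbols libraries with 0 counts. Snord17 lies between 2.65 and 5.83 in the colon and between 12.4 and 55.2 in the blood.

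The 5 members higher in the colon were all below the minimum in the blood, so their direction was set in part by how members were chosen. Snord123, in the lncRNA gene Snhg18, had 28, 35, 60, 20, 53 and 34 counts in the colon of mice 1, 2, 4, 7, 8 and 9 and 0, 1, 0, 0, 0 and 1 in the blood. With 230 counts against 2, the ratio of colon to blood was 35.6 with TMM scaling and 159 with library size alone. No interval is given for this ratio, because the counts derive from coverage and pooling them leaves out the spread between mice. With TMM scaling, edgeR put the colon above the blood by a log2FC of 4.91 (SE 0.81, adjusted p 2.61e-04). Snhg18 went the same way, with normalized counts of 1280 to 2540 in the colon and 0 to 6.32 in the blood, which are separate scales, and a log2FC of 7.69 in the common edgeR fit. Snord118, the U8 RNA needed for processing of large-subunit ribosomal RNA, had 228, 59, 104, 71, 74 and 102 counts in the colon and 24, 13, 0, 4, 0 and 3 in the blood (log2FC 2.54, SE 0.82, adjusted p 0.0163). Mouse 1 was the highest in both tissues. The same edgeR fit gave Snora47, in Zbed3, a log2FC of 2.33 (adjusted p 0.0203, on 9 blood counts in all), Snora26 one of 2.24 (0.0483) and Snord91a, in Tsr1, one of 1.68 (0.0471). With 1 mouse left out, the log2FC of Snora47 ran from 1.98 (without mouse 9) to 4.60 (without mouse 7). Of the 5, only Snord123 stayed called in each fit that left out 1 mouse, and Snora26 and Snord91a were not called with the mouse as a block. Snord13, which guides base acetylation of small-subunit ribosomal RNA, did not pass the test (log2FC 1.10, SE 0.73, adjusted p 0.199).

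The snoRNAs were then set beside their hosts. For 64 members whose host was tested, the log2FC of colon against blood was compared with that of the host. Across genes Pearson's r was 0.59 and Spearman's rho 0.43. For the 41 of them at 10 or more in both tissues these were 0.45 and 0.46. Members that overlap a host exon can hold reads of the host, and the part of such reads was not tested. The sign was shared by 48 of 64 with TMM scaling, where 59.5% of all genes lay above 0. It was shared by 56 with library size alone, where 87.4% of all genes lay above 0, so shared signs are frequent there for any pair. These values share all 12 libraries and 53 hosts, and genes are not independent replicates. The median of the member minus its host was -0.30 on the log2 scale with TMM scaling. Snord32a, Snord34 and Snord35a, which lie in introns of the ribosomal protein gene Rpl13a and are known for a role in lipotoxic stress, had log2FC of -1.69, -2.17 and -1.33 with TMM scaling, against -0.83 for Rpl13a, and of 0.46, 0.06 and 0.79 with library size alone, against 1.29. In TMM-scaled CPM their tissues did not overlap. Between UC and control colon the 3 genes had log2FC of -0.38, -0.23 and 0.02, and in the blood of 0.32, -0.19 and 0.05, none of which passed the test. Snord71 and its host Ap1g1 were at -1.80 and 0.76 with TMM scaling, and Snora26 and Dancr at 2.24 and -1.94. With library size alone the signs no longer differed, at 0.39 and 2.86 for the former pair and 4.22 and 0.17 for the latter. Dancr had low normalized counts, 8.52 to 29.0 in the colon and 5.36 to 43.9 in the blood. Snora26 overlaps an exon of Dancr, and UC mouse 2 held 29 of its blood counts, the most of any blood library. How bases shared by Snora26 and Dancr were counted was not tested.

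Counts of several members were uneven among libraries of one group, and the examples described next share bases with another gene. Some members that overlap no host exon were uneven too. In UC blood Snord53 had 2, 6 and 45 counts and Snora21 had 2, 21 and 30. Snora73a overlaps an exon of its host Snhg3. In the blood it had 991, 3773 and 2016 counts in UC and 1944, 1150 and 904 in control libraries, and Snhg3 had 4714, 141 and 9573 and 9118, 5608 and 3992. UC mouse 2 thus had the highest count of the snoRNA and by far the lowest of the host, while Snora73b, which overlaps no exon, had 3149 counts there within a range of 1054 to 5693. Snora74a had 1038, 1372 and 1813 counts in UC blood and 1704, 1138 and 1 in control blood. In control mouse 9, where it had 1 count, the overlapping gene Gm49347 had 257 counts, against 1 in each other blood library. How the quantification divided the shared bases was not tested, and the levels of Snora73a and Snora74a in these libraries are uncertain.

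Snord22, in Snhg1, was similarly uneven in the blood, with 4, 464 and 24 counts in UC and 16, 2 and 260 in control libraries, whereas in the colon it had 171 to 357. Snora7a, in Rpl32, had 2, 56 and 58 counts in UC blood and 2, 2 and 41 in control blood. Mice 2 and 9 were high for both genes, which overlap a host exon, and mouse 4 was also high for Snora7a. Over the members at 10 or more in the blood, the SD of log2 normalized counts had a median of 1.47 for 18 genes that overlap a host exon. It was 0.76 for 25 in a host without such overlap and 0.55 for 6 without a host, against 0.43 over the 16370 genes with a mean of 10 or more. In the colon the medians were 0.56, 0.46 and 0.45, against 0.44 over the 22123 genes at that minimum. The genes used for comparison were not matched to the members for level. Of the 29 members called between the tissues, 24 were among the 49 that overlap no host exon and 5 among the 24 that do, against 58.5% of all genes called. Whether the overlap or the wider spread affected these calls was not tested.

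**Figure D5:**
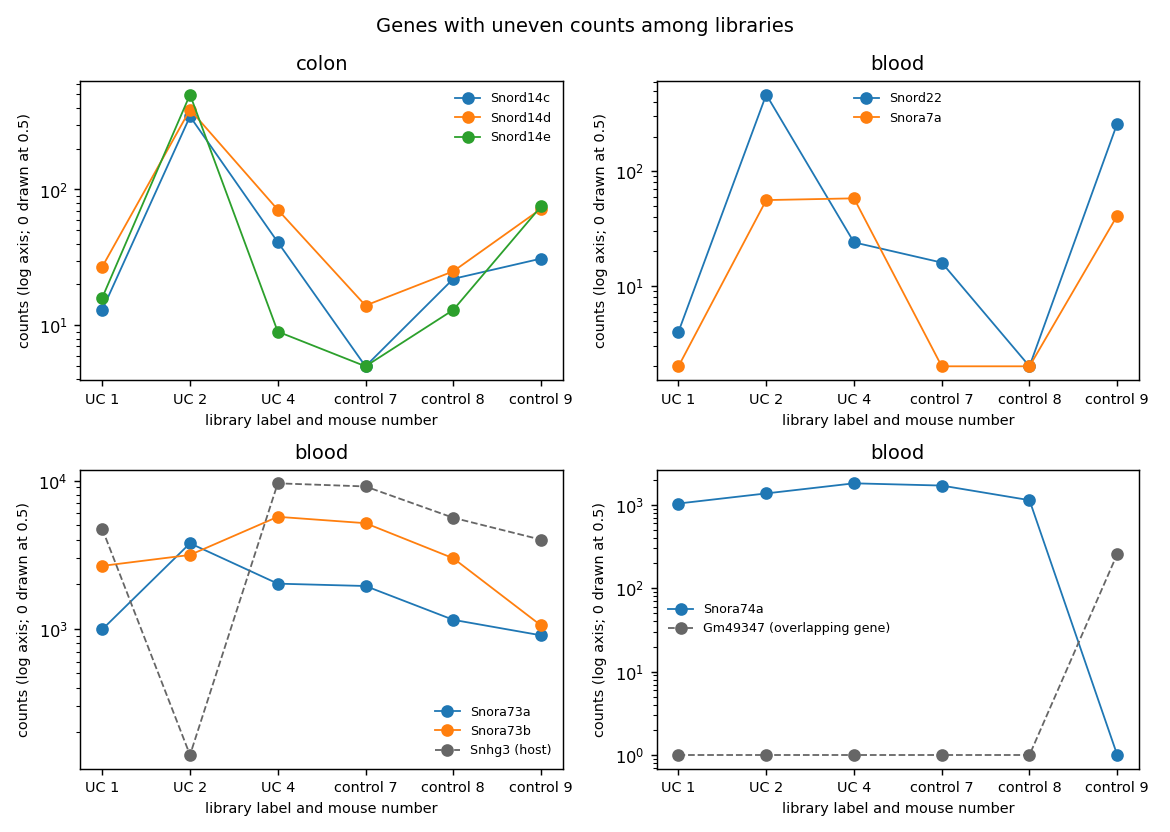
Counts (log axis) by library, joined by lines only to guide the eye: Snord14c, Snord14d and Snord14e in colon; Snord22 and Snora7a in blood; Snora73a and Snora73b with their host Snhg3 in blood; Snora74a with the overlapping gene Gm49347 in blood. UC mouse 2 is highest for the Snord14 genes and for Snora73a, where Snhg3 is lowest, and Snora74a has 1 count in control mouse 9, where Gm49347 has 257.

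No protein of the snoRNA particles passed the test between the labelled groups. Of 8 core proteins of snoRNA particles and 16 factors of their assembly and of Cajal bodies, 0 were SDE between UC and control in either tissue by edgeR or in the interaction, and 0 had an unadjusted p under 0.05. The median log2FC in the colon was -0.18 for the core proteins, with Gar1 at -0.52 (SE 0.34) and Nop58 at 0.07 (SE 0.25), and -0.07 for the assembly factors. Between the tissues, with TMM scaling, 0 core proteins were called higher in the colon and 1 lower, Dkc1 (dyskerin, log2FC -1.15, SE 0.22, edgeR adjusted p 7.65e-04), while Nhp2 had 0.91 and did not reach the fold threshold. Of the assembly factors, 4 were called higher, Ruvbl2 (1.76), Pih1d1 (1.51), Znhit3 and Naf1, and 1 lower, Shq1 (-1.57), a chaperone of dyskerin, of 16 tested, against 37.7% and 20.8% of all genes. With library size alone 8 of 8 core proteins and 15 of 16 assembly factors were called higher and 0 lower, against 76.9% and 7.55%, and Dkc1 and Shq1 were at 1.01 and 0.56. A list of long noncoding snoRNA host genes was also examined, which is not the set of noncoding hosts of the members. In it 18 genes were tested in colon and 15 in blood, and 0 were SDE with the UC label. Between the tissues 3 of 18 were called higher (Snhg11, Snhg14 and Snhg18) and 3 lower (Snhg9, Snhg10 and Dancr) with TMM scaling, against 37.7% and 20.8% of all genes. With library size alone 15 were called higher and 0 lower, against 76.9% and 7.55%. Snhg11 and Snhg14 host no member. Counts were low for Snhg9 and Dancr, with normalized counts of 11.3 to 26.4 and 8.52 to 29.0 in the colon.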

How the data were processed

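Total RNA-seq of 12 libraries was analysed (3 per group). The authors removed ribosomal RNA, and globin RNA in blood, aligned reads with STAR (GRCm38) and ran StringTie 1.3.4c with the Ensembl 92 annotation. They deposited gene counts derived from StringTie coverage, which set no strand, so overlapping genes share counts. They also deposited normalized tables, 1 per tissue, a signal scale of counts divided by 1 factor per library, and these values were compared only within a tissue.

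Members and gene lists were chosen with earlier results of these data known. Genes and hosts were placed with GENCODE vM21 (GRCm38); a host is a gene on the same strand that spans the member. Groups follow the labels for disease and tissue; a second label field gives the other tissue for each sample. Nothing in the labels names separate batches.

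The tests used edgeR 4.0.16 in R 4.3.3 on the counts (TMM, filterByExpr, glmQLFit, glmQLFTest), with Benjamini-Hochberg adjustment over all genes tested, each tissue alone for UC and all 12 libraries for the interaction and for tissue. SE is the log2FC over the root of the F statistic. The steps were tested on simulated data. That simulation had less spread between libraries than these data, and its changed genes had more counts than most members. It therefore does not show what could be detected among the members. Alternatives were RLE or library-size scaling, other filters, DESeq2 1.42.0, limma-voom 3.58.1, each mouse left out and the mouse as block. The study drew both tissues from the same 6 mice, so mouse numbers pair the libraries; deviations of same-numbered libraries correlated across 23258 genes with r from -0.015 to 0.141. A ratio of pooled counts is given without an interval, since pooling leaves out the spread between mice. The text names the 10 members highest per length in each tissue, all members called up to 10 a direction, the 5 with the lowest unadjusted p in each direction of each UC comparison, members with known roles, hosts of 3 or more members, and examples of the protein and host lists. A result on a further host gene is not reported here. Figures were drawn with matplotlib 3.10.9.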

Additional observations from a re-analysis of the deposited data

How the results depend on the processing

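Between the labelled groups, 0 members were called in the colon, in the blood and in the interaction under all alternatives run, the fits that each left out 1 mouse included (from 0 to 0). Numbers of members called between colon and blood moved more. The number called was 29, and ran from 18 to 27 when 1 mouse was left out, with 18 without mouse 4, 19 without mouse 7 and 19 without mouse 8. Over all genes, 13604 of 23258 were called with all mice. Without mouse 4 there were 13210 of 23981, without mouse 7 13253 of 23874 and without mouse 8 13499 of 24064. The number higher in the colon ran from 2 (without mouse 4 or 9) to 5, and was 3 without mouse 2, and the number lower ran from 15 (without mouse 7 or 8) to 22. Library size alone gave 36 higher and 0 lower, against 76.9% and 7.55% of all genes; the upward shift of all genes under that scaling put Scarna6 (0.79), Snord34 (0.063) and Snord71 (0.39) above 0. With the mouse as a replicate block 23 members were called between the tissues, against 13420 of 23258 genes, and 0 in the interaction. The block moved no count of members called by more than 1.5 times. Among members that overlap no host exon, an alternative chosen after seeing the data, 24 of 49 were called, against 58.5% of all genes.

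With 1 mouse left out, the log2FC of Snord14e in the colon ran from -1.42 to 3.72, and in the blood that of Snord15b from -0.44 to 2.05 and that of Snord66 from -0.048 to 1.76; each was below 0 without mouse 2 alone. Of the members higher in the colon, Snord91a, Snora26, Snora47 and Snord118 each lost the call without at least 1 mouse, and the first 2 also under the block. A minimum mean of 50 left 8 box C/D, 9 box H/ACA and 23 members in all, and no minimum gave 83, 42 and 134. With the genes of the normalized blood table as the total, the members' share was 1048 ppm in UC and 886 ppm in control blood. Other causes of these changes were not tested. Most members had under 50 counts a library, where small changes could not be detected, and 3 libraries a group limit every UC comparison.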
